A study of Homo sapiens with 6 samples.

Results

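The SOX genes of HaCaT cells were followed through a knockdown of IQGAP2. HaCaT is an immortalised human keratinocyte line with an abnormal chromosome number. SOX proteins are transcription factors related to the sex-determining factor SRY. The 7 genes described are SOX2, SOX4, SOX7, SOX9, SOX12, SOX13 and SOX15, taken by name from the 12829 genes of the deposited table. The table held 8 SOX genes in all. The eighth, SOX18, was not chosen. The members were selected on their measured level: the lowest chosen gene, SOX4, averaged 7.65 FPKM over the 6 libraries and SOX18 averaged 0.371 FPKM. FPKM counts fragments per kilobase of a gene, scaled to depth, so levels of different genes can be compared. The large fall of SOX2 was also known when the genes were chosen, so its values are given as a description.

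The knockdown group was 3 libraries of HaCaT cells in which a short hairpin RNA targeted IQGAP2, a scaffold protein that binds calmodulin and actin. The control group was 3 libraries of HaCaT cells of wild-type genotype, called normal control in the labels. The labels name the replicates biological but do not say whether they were separate cultures, so the p-values measure a spread that may be technical. They also do not say whether a non-targeting hairpin was used in the control, how many hairpins were used, or whether the knockdown cells were 1 clone. IQGAP2 held 2, 4 and 2 reads in the knockdown libraries, against 24, 22 and 21 in the control libraries. Its mean level was 0.0235 FPKM in the knockdown and 0.196 FPKM in the control. The targeted gene was thus near the floor of the table in both groups, and below the 0.5 FPKM filter it was not tested. Depth lay between 12901037 and 15360759 reads in knockdown libraries and between 13957447 and 15122470 in control libraries, as recovered from the FPKM values. Knockdown replicate 2 was the least like its group: the correlation of log2 levels across genes was 0.993 and 0.994 with its 2 companions, against 0.997 between knockdown replicates 1 and 3 and 0.997 for each pair of control libraries. All 11 keratinocyte markers looked for were in the table, with summed levels of 6396 to 7008 FPKM in the knockdown and 6231 to 6310 FPKM in the control. The sum hides movement within the list: by the limma test described below, 7 of the 11 were higher and 1 was lower in the knockdown. Over all tested genes, 29.5% were called higher and 27.8% lower. The stress keratin KRT16 was at 81.5 ± 6.84 FPKM in knockdown libraries, against 38.1 ± 1.23 FPKM in control libraries, and the desmosomal cadherin DSG3 at 106 ± 8.11 FPKM in knockdown libraries, against 50.3 ± 1.08 FPKM in control libraries (SD, n = 3 each). The measurements are of bulk RNA, in which fewer cells that express a gene and less RNA per cell cannot be told apart.

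SOX proteins bind the minor groove of DNA through an HMG box and bend it, and most act together with a partner factor at the same site. The family is divided into groups by the sequence of the box. SOX2 belongs to group B1, SOX4 and SOX12 to group C with SOX11, SOX13 to group D with SOX5 and SOX6, SOX9 to group E with SOX8 and SOX10, SOX7 to group F with SOX17 and SOX18, and SOX15 is the group G gene, with a box close to that of SOX2. In skin, SOX9 is known for the outer root sheath and stem cells of the hair follicle, and SOX2 for Merkel cells, the dermal papilla and squamous cell carcinoma.

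The starts of the genes are shown for the 4 members whose sequence was at hand. Of these, SOX2, SOX4 and SOX13 were lower in the knockdown, the fall of SOX2 being known beforehand, and SOX12 did not pass the test. Among all tested genes 27.8% were called lower. SOX7, which fell, and SOX9 and SOX15, which rose, are not shown. The sequences are from RefSeq on GRCh38.p14, run 5′ to 3′ along the gene's strand and span 250 bases before the start and 50 after it. SOX2 is at chr3:181711675-181711974, SOX4 at chr6:21593501-21593800, SOX13 at chr1:204072865-204073164 and SOX12 at chr20:325302-325601, all on the plus strand. The RefSeq start of SOX4 lies inside the gene as GENCODE v29 has it. Capitals mark each match, on either strand, to a CCAAT box (CCAAT), a GC box (GGGCGG), the octamer (ATGCAAAT) bound by POU factors, and the SOX core sequences ACAAAG and ACAATG. No match overlapped another.
SOX2: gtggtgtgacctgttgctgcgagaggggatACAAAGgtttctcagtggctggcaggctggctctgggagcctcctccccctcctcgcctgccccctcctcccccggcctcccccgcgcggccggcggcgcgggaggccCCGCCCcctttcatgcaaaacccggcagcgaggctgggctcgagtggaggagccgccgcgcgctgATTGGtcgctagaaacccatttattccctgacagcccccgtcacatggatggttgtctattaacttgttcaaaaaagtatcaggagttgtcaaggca
SOX4: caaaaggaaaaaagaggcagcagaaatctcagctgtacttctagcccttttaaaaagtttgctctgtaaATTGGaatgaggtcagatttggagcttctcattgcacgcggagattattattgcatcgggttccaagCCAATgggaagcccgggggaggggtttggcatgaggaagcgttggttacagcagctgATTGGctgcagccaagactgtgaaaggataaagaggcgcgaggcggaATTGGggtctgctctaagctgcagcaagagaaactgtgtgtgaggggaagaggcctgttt
SOX13: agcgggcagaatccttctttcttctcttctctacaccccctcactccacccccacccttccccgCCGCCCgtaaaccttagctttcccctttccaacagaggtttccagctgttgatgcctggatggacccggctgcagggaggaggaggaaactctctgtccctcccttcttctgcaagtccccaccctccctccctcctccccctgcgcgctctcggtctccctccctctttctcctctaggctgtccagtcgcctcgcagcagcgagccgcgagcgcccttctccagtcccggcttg
SOX12: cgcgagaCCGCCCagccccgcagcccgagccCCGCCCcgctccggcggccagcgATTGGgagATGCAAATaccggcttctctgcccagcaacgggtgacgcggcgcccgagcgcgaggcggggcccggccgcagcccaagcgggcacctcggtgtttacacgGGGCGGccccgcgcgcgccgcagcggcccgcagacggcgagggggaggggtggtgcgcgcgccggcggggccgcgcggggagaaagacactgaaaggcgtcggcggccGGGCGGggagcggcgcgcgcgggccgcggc
The 4 starts differed in make-up. The SOX2 window held a CCAAT box, a GC box and the only SOX core match of the 4, ACAAAG, which is found in 16.1% of 35114 RefSeq promoter windows of the same length. SOX4 held CCAAT on one strand or the other at 4 places and no GC box, against 34.6% of windows with a CCAAT box and 45.0% with a GC box. It was also the poorest in G and C, at 49.3%, against 62.7% in SOX13, 63.3% in SOX2, 80.3% in SOX12 and a median of 58.7% over all windows. SOX13 held a GC box as its only match. SOX12 held 4 GC boxes, a CCAAT box and the octamer, which 1.77% of windows hold. ACAATG, found in 10.8% of windows, was in none of the 4. A match describes the letters and is not evidence of binding.

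The knockdown and control libraries differed in most SOX genes, in both directions. All 7 members passed the filter of a mean of at least 0.5 FPKM, which their choice on measured level had settled. They lay above it in every library. In limma, 4 were lower in the knockdown (SOX2, SOX4, SOX7 and SOX13) and 2 were higher (SOX9 and SOX15). The call of SOX2 only restates a fall known when the genes were chosen, and is no support for it. SOX12 did not pass. Over all 11214 genes tested, 27.8% were called lower, 29.5% higher and 57.4% in either direction, so calls are frequent in these libraries. The knockdown and control values did not overlap for 6 of the 7 members, and for 65.1% of all tested genes. The median log2 change was -0.32 over the 7 members and 0.01 over all tested genes. Log2 changes were taken on log2(FPKM + 1), knockdown minus control, where the pseudocount shrinks the change of low genes. An exact permutation test (two-sided) gave p = 0.1 for each of the 6 genes that did not overlap, which is the smallest p that 3 libraries against 3 allow. For SOX2 this too is only a description.

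**Figure D1:**
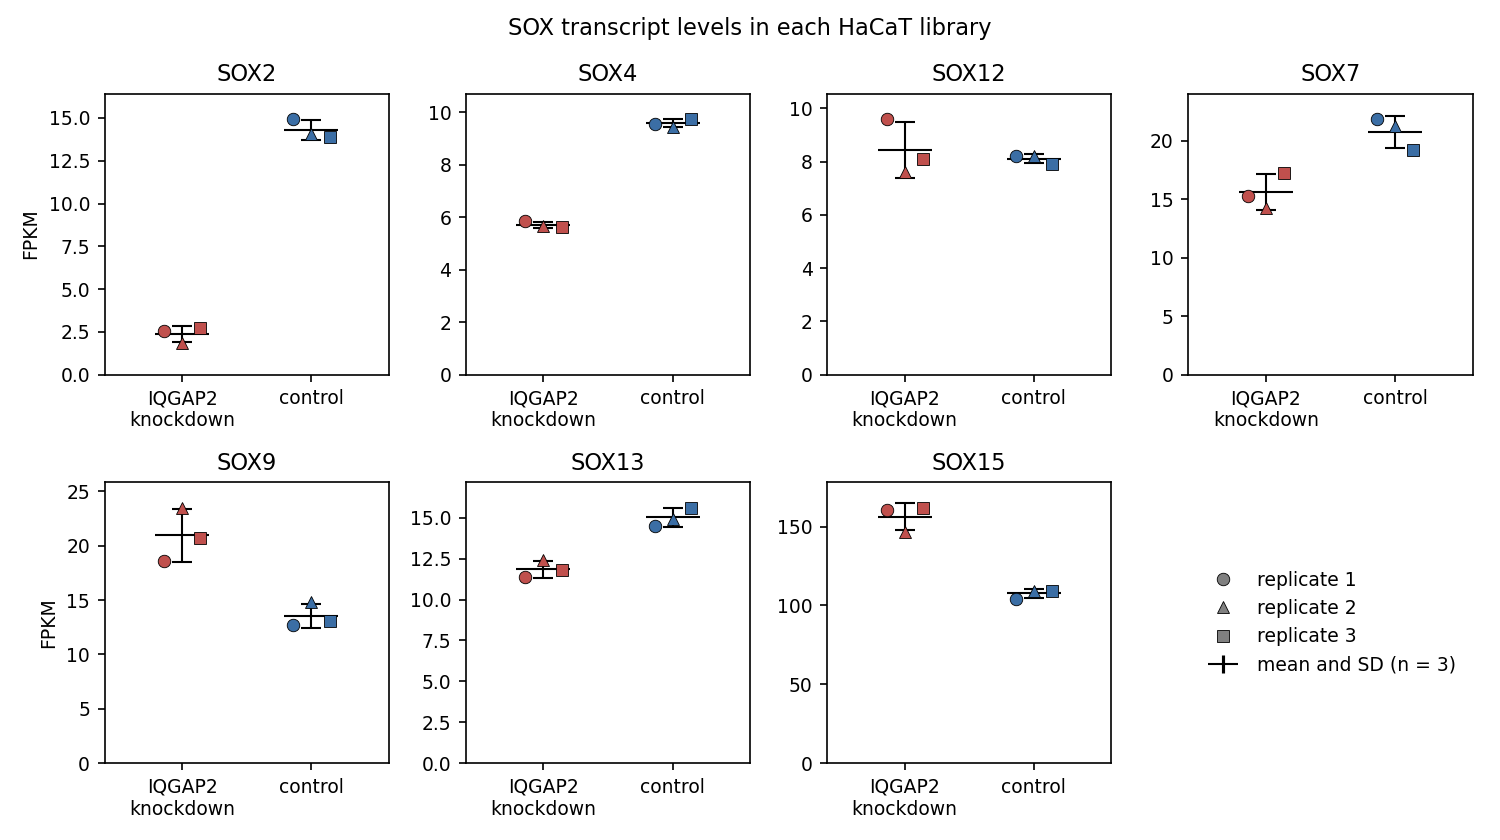
FPKM of each SOX gene (vertical axis, from 0) in the 3 IQGAP2 knockdown libraries (left, red) and the 3 control libraries (right, blue), with a marker for each replicate and a bar for the mean and SD. SOX2 averaged 2.38 FPKM in the knockdown and 14.3 FPKM in the control, and SOX12 is the panel in which the groups overlap.

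SOX2, the group B1 factor that keeps stem cells undifferentiated, lies on GRCh38 chromosome 3 (181711924 to 181714436, plus strand, 1 exon), inside an intron of the non-coding gene SOX2-OT. It was at 2.57, 1.83 and 2.74 FPKM in knockdown replicates 1, 2 and 3, against 14.9, 14.1 and 13.9 FPKM in control replicates 1, 2 and 3. Every knockdown library lay below every control library by a wide gap, and knockdown replicate 2 was the lowest of the 6. These levels rest on 84, 71 and 96 reads in the knockdown and 572, 499 and 491 reads in the control libraries. At equal depth the knockdown reads came to 16.5% of the control reads (exact Clopper-Pearson 95% interval 14.3% to 18.8%, for counting error alone). The log2 change was -2.19 (SE 0.099). Since this fall was known beforehand, its call above is a description and no adjusted p is given for it. It was the only SOX gene to change by more than 2-fold on this scale. Among all tested genes 0.838% fell by that much.

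SOX4, a group C activator known from progenitor cells and from tumours of many tissues, also fell. The gene has a single exon on chromosome 6 (21592768 to 21598619, plus strand). Its level was 5.85, 5.68 and 5.62 FPKM in knockdown libraries and 9.57, 9.45 and 9.74 FPKM in control libraries. The libraries of each group lay within a narrow band, with a coefficient of variation of 2.08% in the knockdown and 1.52% in the control. The mean was 5.71 ± 0.119 FPKM in the knockdown and 9.58 ± 0.145 FPKM in the control (SD, n = 3 each), and the log2 change was -0.66 (SE 0.055, limma adjusted p = 9.39e-06).

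SOX12, the other group C gene measured, did not pass the test. It lies on chromosome 20 (325595 to 330224, plus strand) and is also a gene of 1 exon. Its level was 9.60, 7.60 and 8.09 FPKM in knockdown libraries, against 8.23, 8.21 and 7.91 FPKM in control libraries. The groups overlapped: knockdown replicate 1 was the highest of the 6 and knockdown replicate 2 the lowest. The log2 change was 0.04 (SE 0.078, limma adjusted p = 0.653; exact permutation p = 0.9). Its sign turned when knockdown replicate 1 was left out (-0.04, adjusted p = 0.601), and it passed as higher once each library was rescaled to a common FPKM sum (0.19, adjusted p = 0.0476). Over all alternatives the adjusted p ran from 0.0476 to 0.833. The contrast between the pair does not depend on a scaling factor per library, because it can be taken inside each library. SOX4 stood at 0.609, 0.747 and 0.694 times the level of SOX12 in the knockdown, against 1.16, 1.15 and 1.23 times in the control. SOX4 was thus the lower of the pair in every knockdown library and the higher in every control library.

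SOX7, the group F factor of the endothelium and early endoderm, was lower in the knockdown. Its level was 15.3, 14.2 and 17.3 FPKM in knockdown libraries and 21.9, 21.2 and 19.2 FPKM in control libraries. The groups came close, with knockdown replicate 3 just under control replicate 3. The mean was 15.6 ± 1.53 FPKM in the knockdown and 20.8 ± 1.37 FPKM in the control (SD, n = 3 each), and the log2 change was -0.39 (SE 0.074, limma adjusted p = 0.00124). SOX7 lies on chromosome 8, minus strand, and 39.4% of its exon length in GENCODE v29 is shared with the gene PINX1 on the same strand. How the reads of the shared stretch were counted is not given in the sources used here, so its level is uncertain. PINX1 itself was not among the genes analysed here, so reads of the pair cannot be set side by side. Endothelial markers were near 0 beside it: 4 of 11 endothelial markers were in the table (CDH5, VWF, ERG and SOX18), and they summed to 0.734 to 0.914 FPKM in the knockdown and 0.731 to 1.08 FPKM in the control. SOX18, another group F gene, was listed at 0.331, 0.208 and 0.270 FPKM in knockdown and 0.388, 0.760 and 0.267 FPKM in control libraries, on 6 to 20 reads a library, and its groups overlapped.

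SOX13, a group D protein that lacks a transactivation domain and binds the WNT effector TCF7, fell by a smaller amount. It lies on chromosome 1 (204073115 to 204127743, plus strand). Its level was 11.4, 12.4 and 11.8 FPKM in knockdown libraries, against 14.5, 14.9 and 15.6 FPKM in control libraries. All knockdown libraries were below all control libraries. The log2 change was -0.32 (SE 0.055, limma adjusted p = 7.84e-04). With libraries rescaled to a common sum the change was -0.16 and missed the threshold (adjusted p = 0.0517; the alternatives ran from 9.48e-05 to 0.0517). That rescaling raised the median of all tested genes by 0.13, and made 72.6% of calls higher, against 51.5% of calls with values as deposited. Relative to the median of all tested genes SOX13 was at -0.30 under the common sum and at -0.33 as deposited.

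SOX9, the group E factor of hair follicle stem cells and cartilage, rose. It lies on chromosome 17 (72121020 to 72126420, plus strand, 3 exons). Its level was 18.6, 23.5 and 20.7 FPKM in knockdown libraries, against 12.7, 14.8 and 13.1 FPKM in control libraries. The knockdown libraries were all higher, and replicate 2 was the highest of its group in both. The mean was 20.9 ± 2.44 FPKM in the knockdown and 13.5 ± 1.13 FPKM in the control (SD, n = 3 each). The log2 change was 0.59 (SE 0.084, limma adjusted p = 2.34e-04), and 0.51 with its second knockdown library left out (adjusted p = 2.10e-04).

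SOX15, the group G factor, was by far the most abundant SOX transcript and rose further. It is a short gene on chromosome 17 (7588178 to 7590170, minus strand, 2 exons) that shares 15 bases of exon with MPDU1 on the opposite strand. Its level was 160.4, 146.6 and 162.1 FPKM in knockdown libraries, against 104.4, 109.3 and 109.2 FPKM in control libraries. The lowest knockdown library, replicate 2, was still well above the highest control library. The log2 change was 0.53 (SE 0.051, limma adjusted p = 2.07e-05). Over the 6 libraries its mean level exceeded that of 98.2% of the genes in the table.

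**Figure D2:**
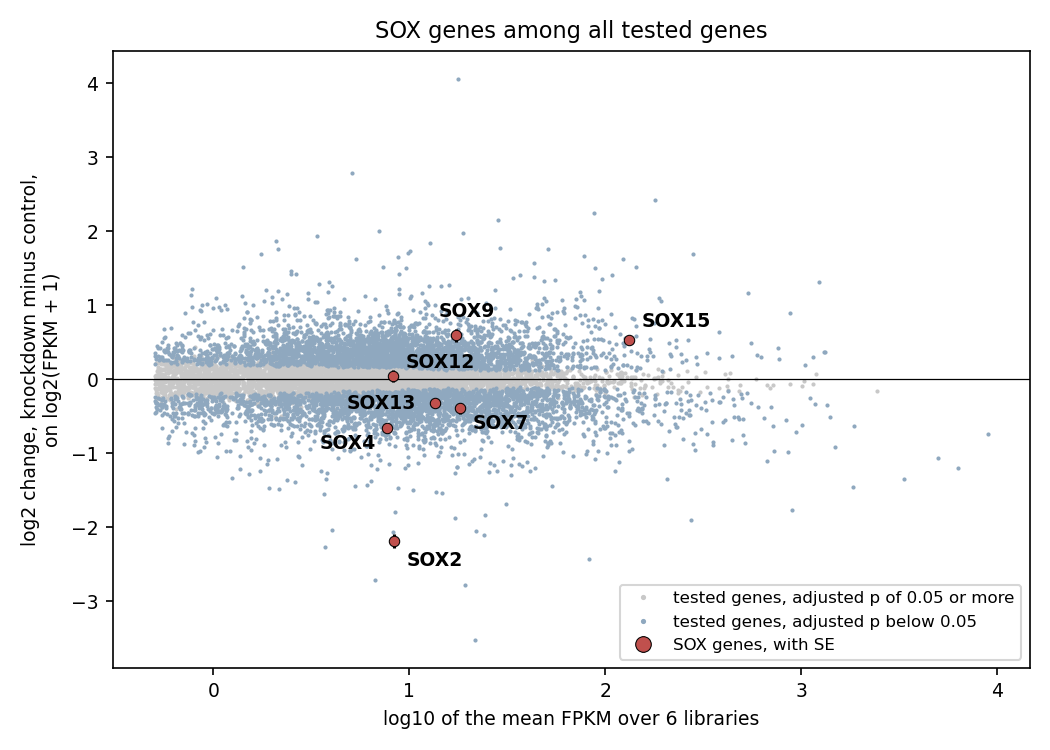
Log2 change, knockdown minus control (vertical axis), against log10 of the mean FPKM (horizontal axis) for the 11214 genes tested, with the 7 SOX genes in red with their SE. SOX2 lies at the lower edge of the cloud at -2.19, and the other 6 lie between -0.66 and 0.59, inside it.

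The order of the SOX genes by level differed between the groups. In the knockdown it was SOX15, SOX9, SOX7, SOX13, SOX12, SOX4 and SOX2, and no neighbours in this order overlapped between libraries. In the control it was SOX15, SOX7, SOX13, SOX2, SOX9, SOX4 and SOX12, where SOX13 and SOX2 overlapped, as did SOX2 and SOX9. SOX2 was thus the last in the knockdown and the fourth in the control, and SOX9 the second in the knockdown and the fifth in the control. Summed over the 7 genes, the level was 221 ± 8.47 FPKM in the knockdown and 189 ± 2.92 FPKM in the control (SD, n = 3 each), with no overlap. Without SOX15 the order of the groups was the opposite, with 64.9 ± 1.49 FPKM in the knockdown and 81.3 ± 1.65 FPKM in the control. SOX15 made up 69.2% to 71.7% of the sum in knockdown and 56.1% to 57.9% in control libraries. The share of SOX2 was 0.862% to 1.20% in knockdown and 7.32% to 8.02% in control libraries.

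**Figure D3:**
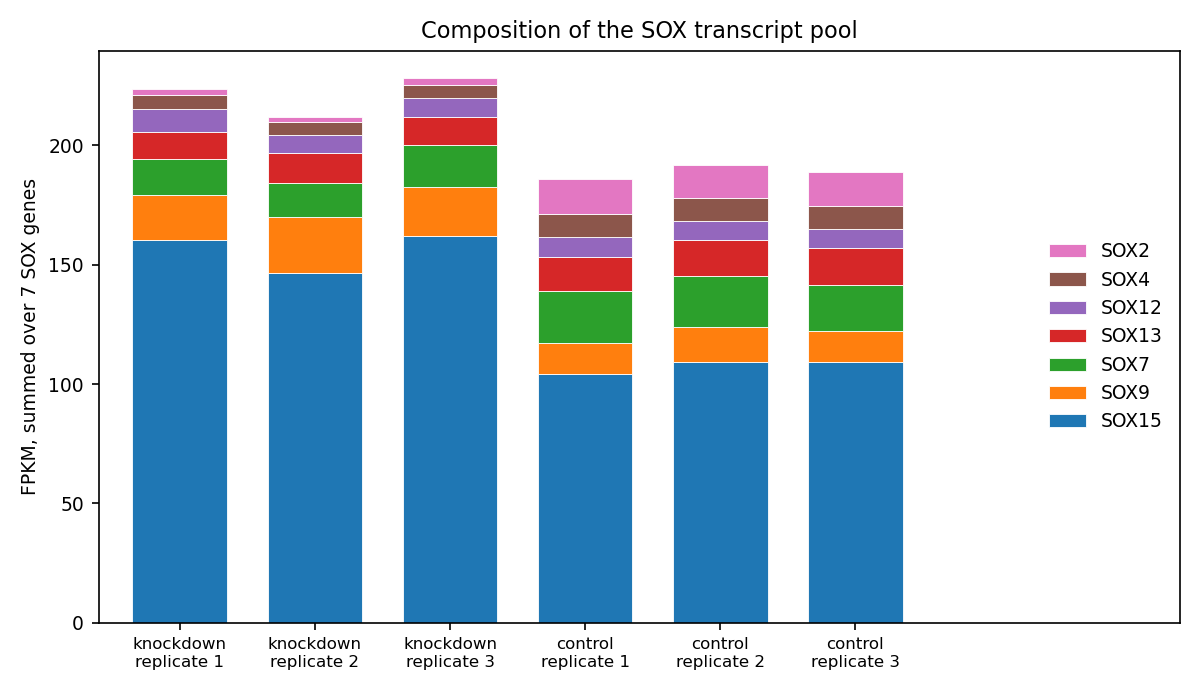
FPKM of the 7 SOX genes stacked for each library (vertical axis, from 0), with the 3 knockdown libraries on the left and the 3 control libraries on the right. The SOX15 segment is 146.6 to 162.1 FPKM in the knockdown and 104.4 to 109.3 FPKM in the control, and the SOX2 segment at the top is 1.83 to 2.74 FPKM in knockdown and 13.9 to 14.9 FPKM in control libraries.

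Ratios between SOX genes inside a library, which a single scaling factor per library cannot alter, separated the groups. SOX15 was 62.4, 80.3 and 59.1 times as abundant as SOX2 in the knockdown libraries, against 6.99, 7.77 and 7.86 times in the control libraries. SOX9 was 3.19, 4.14 and 3.69 times as abundant as SOX4 in the knockdown libraries, against 1.33, 1.57 and 1.34 times in the control libraries. The difference in log2 ratio, knockdown minus control, was 3.15 for SOX15 over SOX2, 1.37 for SOX9 over SOX4 and -0.79 for SOX4 over SOX12. These pairs were chosen with the direction of SOX2 known, and no test is given for them.

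**Figure D4:**
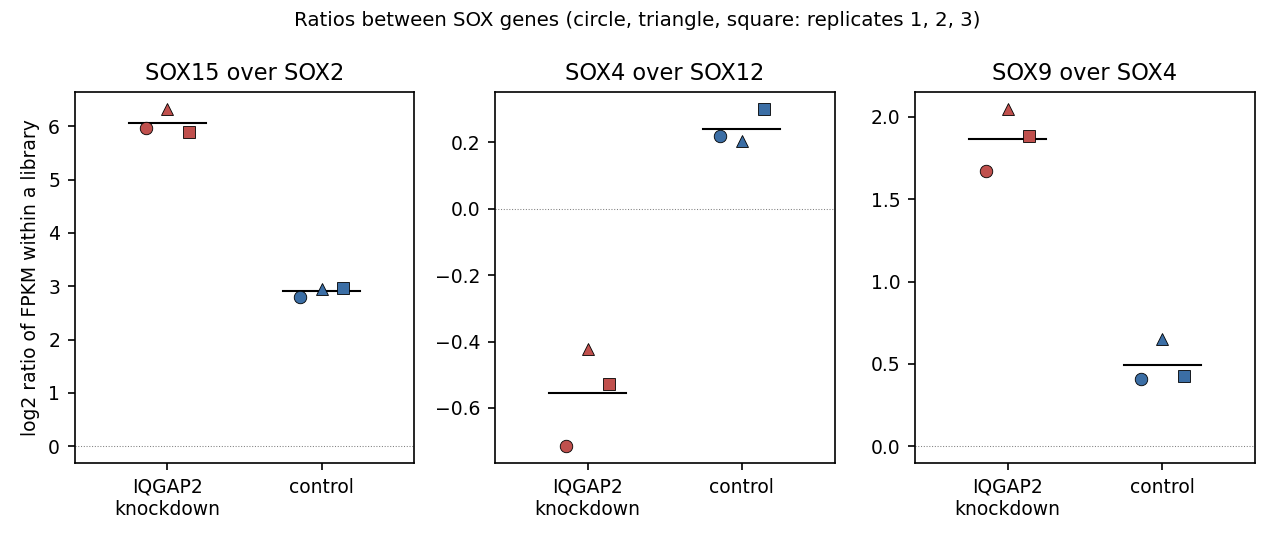
Log2 ratio of the FPKM of SOX genes within each library (vertical axis; each panel has its own range) for SOX15 over SOX2, SOX4 over SOX12 and SOX9 over SOX4, with the 3 knockdown libraries on the left, the 3 control libraries on the right and a line at each mean. The groups do not overlap in any panel, and SOX4 over SOX12 lies below 0 in the knockdown and above 0 in the control.

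The genes that SOX factors work with were called in both directions. Of 21 known protein partners, 17 were in the table and 16 were tested. The knockdown was higher for 6 of these and lower for 7, with a median log2 change of -0.01. Both counts are above the 29.5% called higher and 27.8% called lower among all tested genes, of which 57.4% were called in either direction. No set test was run, and the list was chosen with earlier results of these data known. The acetyltransferases CREBBP and EP300, coactivators that SOX9 recruits, were the largest rises. CREBBP was at 6.33 ± 0.730 FPKM in the knockdown and 3.48 ± 0.193 FPKM in the control (log2 change 0.71, limma adjusted p = 6.74e-05), and EP300 at 6.38 ± 0.701 FPKM in the knockdown and 3.57 ± 0.349 FPKM in the control (0.69, adjusted p = 1.14e-04). FHL3, a LIM-domain cofactor reported to bind SOX15 in mouse muscle, was the largest fall on the log2(FPKM + 1) scale, at 7.996 ± 0.943 FPKM in the knockdown and 11.6 ± 0.258 FPKM in the control (-0.49, adjusted p = 4.38e-04). POU5F1, the pluripotency partner of SOX2, was at 0.669 ± 0.120 FPKM in the knockdown and 1.30 ± 0.152 FPKM in the control (-0.46, adjusted p = 0.0013), a larger fall than that of FHL3 as a ratio of means (0.516 against 0.692). It has near-identical pseudogene copies, so its level is uncertain. The split of the partners rested on scaling and on 1 library: 8 were higher and 3 lower with libraries rescaled to a common sum, and 5 higher and 4 lower without control replicate 2. The calls over all 11214 tested genes moved too. They were 3313 higher and 3121 lower as deposited, and 4864 higher and 1838 lower under a common sum. Without control replicate 2 they were 2818 higher and 2742 lower.

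Enzymes that modify or degrade SOX proteins gave 2 higher and 4 lower of 11 tested, with a median log2 change of -0.05. The share called is near the 57.4% called among all tested genes. SETD7, which methylates SOX2, was at 3.88 ± 0.427 FPKM in the knockdown and 2.37 ± 0.113 FPKM in the control (log2 change 0.53, limma adjusted p = 3.30e-04). FBXW7, the ubiquitin ligase subunit that marks SOX9 for degradation, was at 2.12 ± 0.0591 FPKM in the knockdown and 1.42 ± 0.0928 FPKM in the control (0.37, adjusted p = 0.00154). The demethylase KDM1A was at 47.3 ± 0.756 FPKM in the knockdown and 59.0 ± 0.587 FPKM in the control (-0.31, adjusted p = 1.36e-04). Under a common sum the counts were 4 higher and 2 lower, and without control replicate 2 they were 2 higher and 2 lower. The calls over all tested genes in these settings are given with the partners above.

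Genes reported elsewhere as SOX targets were tested only in part, and those tested did not share a direction. Among all tested genes 29.5% were called higher and 27.8% lower, with a median log2 change of 0.01. Calls in both directions are thus frequent in these libraries, and the lists are short. Of 13 genes reported for SOX2, 5 were tested, with 3 higher and 1 lower and a median log2 change of 0.34. VEGFA, the endothelial growth factor, rose to 43.8 ± 3.76 FPKM in knockdown, against 25.7 ± 0.441 FPKM in control libraries (log2 change 0.74, limma adjusted p = 7.82e-06). CCND1, the G1 cyclin, was at 87.5 ± 5.57 FPKM in the knockdown and 65.4 ± 1.40 FPKM in the control (0.41, adjusted p = 1.18e-04), and the gene that fell was POU5F1. Without knockdown replicate 3, 2 of these genes were lower. Of 15 reported for SOX9 in cartilage and stem cells, 3 were tested. BMI1, a Polycomb subunit, was higher, at 11.4 ± 0.510 FPKM in the knockdown and 8.39 ± 0.814 FPKM in the control (0.41, adjusted p = 7.79e-04), and the collagen gene COL9A2 was lower, at 1.56 ± 0.194 FPKM in the knockdown and 2.41 ± 0.164 FPKM in the control (-0.42, adjusted p = 0.00166). Of 8 reported for SOX4 and SOX11, 6 were tested. The microRNA-processing gene DICER1 was higher, at 11.8 ± 1.79 FPKM in the knockdown and 6.78 ± 0.105 FPKM in the control (0.71, adjusted p = 1.01e-04). The cadherin CDH2 was lower, at 1.13 ± 0.178 FPKM in the knockdown and 1.83 ± 0.0393 FPKM in the control (-0.41, adjusted p = 0.00165). Without knockdown replicate 2, 4 of these genes were lower. For SOX7 and its group, 1 of 5 reported targets was tested and it did not pass, except under a common sum, where it was called higher.

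**Figure D5:**
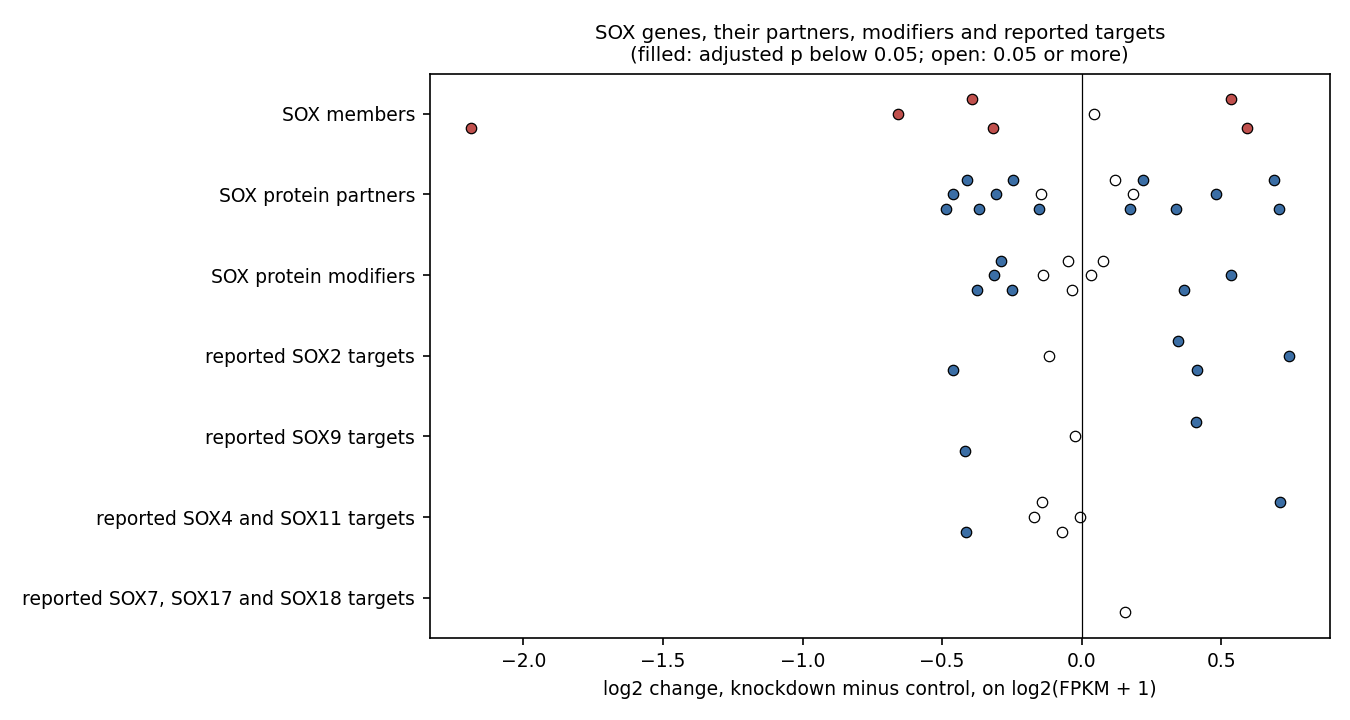
Log2 change, knockdown minus control (horizontal axis), of the SOX genes and of the tested genes in each list of partners, modifiers and reported targets (rows; vertical spread within a row only separates points). Filled points passed the limma test and open points did not, and every list with more than 1 tested gene has points on both sides of 0. The filled point of SOX2 is a description, since its fall was known beforehand.

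Markers of cell types known for SOX2 were looked for beside its fall. Of 9 Merkel cell markers, 4 were in the table (ISL1, SYP, KRT8 and KRT18), while ATOH1, KRT20, INSM1, PIEZO2 and CHGA were not among the genes analysed. Their sum was 121 to 132 FPKM in the knockdown and 179 to 184 FPKM in the control, nearly all of it from the keratins KRT8 and KRT18 of simple epithelia, which both passed as lower. Among all tested genes 27.8% were called lower. ISL1 did not pass (log2 change -0.14, limma adjusted p = 0.168). SYP, below the filter and not tested, was at 0.540 ± 0.128 FPKM in the knockdown and 0.351 ± 0.121 FPKM in the control, and its groups overlapped. Of 10 fibroblast and dermal papilla markers, 3 were in the table, with sums of 1.56 to 1.91 FPKM in the knockdown and 3.46 to 3.79 FPKM in the control. LUM, a small matrix proteoglycan, was at 0.268 ± 0.134 FPKM in the knockdown and 2.21 ± 0.346 FPKM in the control. It rests on 14, 11 and 5 reads in knockdown libraries and passed the filter through the control group alone, so no test is given for it. Nearly all of the difference in the sum came from LUM. The collagen gene COL1A1, the other tested marker, was at 1.44 ± 0.178 FPKM in the knockdown and 1.24 ± 0.159 FPKM in the control and did not pass (log2 change 0.13, limma adjusted p = 0.237). Of 8 markers of pluripotent cells, 3 were in the table, with sums of 1.98 to 2.31 FPKM in the knockdown and 2.46 to 3.34 FPKM in the control. POU5F1 and SALL4 passed as lower. ZFP42 went the other way, at 0.686 ± 0.221 FPKM in the knockdown and 0.466 ± 0.129 FPKM in the control, and its groups overlapped. It passed the filter through the knockdown group alone, so no test is given for it. The part of these genes in the fall of SOX2 was not tested. For melanocytes and Schwann cells 2 of 10 markers were in the table, at sums of 0.855 to 1.04 FPKM in the knockdown and 1.20 to 1.28 FPKM in the control. For the hair follicle stem cells in which SOX9 is known, 6 of 9 markers were in the table, summing to 79.2 to 90.3 FPKM in the knockdown and 140.2 to 141.8 FPKM in the control. KRT15, a keratin of basal cells and the hair follicle bulge, gave most of that sum and fell (log2 change -0.79, limma adjusted p = 3.32e-06), while the receptor gene LGR6 rose (0.64, adjusted p = 2.24e-04).

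The genes most like SOX2 in their pattern over the 6 libraries were MMP7, TCIM and SAA1. Likeness was the mean absolute difference between centred log2(FPKM + 1) values, which was 0.098 for MMP7, a matrix metalloproteinase, 0.11 for TCIM, a regulator of WNT signalling, and 0.12 for SAA1, an acute-phase protein. The matrix metalloproteinase was at 8.47 ± 0.506 FPKM in the knockdown and 39.6 ± 0.675 FPKM in the control. For SOX9, whose rise was the largest of the 7 in the fit as deposited, the nearest were PPP2R5E, a regulatory subunit of protein phosphatase 2A, HYOU1, a chaperone of the endoplasmic reticulum, and CLCA4, at 0.036, 0.041 and 0.041. The order of SOX9 and SOX15 turned in some alternatives: without knockdown replicate 2 the log2 change was 0.58 for SOX15 and 0.51 for SOX9, with the length trend removed 0.73 and 0.63, and under quantile normalization both were at 0.61. With 6 libraries in 2 groups, such likeness reflects mainly a difference between groups of similar size on the log2(FPKM + 1) scale. As a ratio of means, knockdown over control, CLCA4 was at 2.72 and SOX9 at 1.55. CLCA4 averaged 1.05 FPKM in the knockdown and 0.385 FPKM in the control, on 12, 28 and 17 reads in control libraries. It passed the filter through the knockdown group alone.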

How the data were processed

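RNA-seq libraries of HaCaT cells, 3 with IQGAP2 knockdown and 3 control, were grouped by their labels. The authors deposited FPKM values for 12829 genes. HISAT2 2.2.1 and GRCh38 were used, per the submitters' processing notes; counting, annotation and strand use are not stated there. Every gene in the table averaged at least 0.1 FPKM.

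Whole reads were recovered from the FPKM steps for 100% of genes, within 0.004 reads, and served for depth, counting intervals and an alternative fit. On simulated reads the recovery was exact for 98.2% of genes, so a recovered count can be wrong. A common divisor of a gene's counts cannot be seen, and without molecular identifiers, reads are not independent molecules.

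Knockdown and control were compared by limma (3.58.1, under R 4.3.3) fitted to log2(FPKM + 1) for the 11214 genes that averaged 0.5 FPKM or more, with variances following a trend with level, two-sided, with Benjamini-Hochberg adjustment (threshold 0.05), and by exact permutation for single genes. Scripts were tested on simulated data. Because FPKM is relative to the library, abundant transcripts that fall lift all others.

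The members and the 14 lists were chosen with earlier results of these data known. Named beyond the members were up to 2 largest rises and falls per list, and the 3 genes most like SOX2 and like the member with the largest rise. The result of 1 further named gene is not reported here. Promoters and gene positions came from RefSeq (GRCh38.p14; 4 of 7 members matched) and GENCODE v29 (GRCh38). Alternatives covered pseudocounts, filters, scaling, length, replicate block and leaving out each library.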

Additional observations from a re-analysis of the deposited data

How the results depend on the processing

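Over 16 alternatives, 109 of 112 values of the 7 SOX genes kept their direction and their side of the threshold. The 3 exceptions were SOX12 under a common FPKM sum (log2 change 0.19, limma adjusted p = 0.0476), SOX12 without knockdown replicate 1 (-0.043) and SOX13 under a common sum (-0.16, adjusted p = 0.0517). SOX2 ranged from -2.62 to -2.05, given as a description since its fall was known beforehand. SOX4 ranged from -0.75 to -0.51, SOX7 from -0.47 to -0.24, SOX9 from 0.51 to 0.75 and SOX15 from 0.51 to 0.73. SOX4, SOX7, SOX9 and SOX15 were past the threshold in each alternative run. With 1 library left out, the change of SOX12 ranged from -0.043 to 0.11. The summed SOX level, on a log2 scale, was 0.39 higher in the knockdown under a common sum, against 0.23 as deposited. Voom on recovered reads and scaling by median ratios were chosen after seeing the data; edgeR and DESeq2 were not run, since the values are FPKM. Samples with the same replicate number did not deviate together over all tested genes (correlations of -0.067, -0.038 and 0.019). With 3 libraries per group these values cannot exclude a pairing, and the labels do not state one. With the replicate number as a block, the change of SOX2 was -2.19 and the calls of all 7 genes stayed on their side of the threshold, while over all genes 3167 were higher and 3024 lower. Of 156 counts of partners, modifiers and reported targets under alternatives, 16 moved by more than 1.5 times. With a filter of at least 5 FPKM, 3 partners were higher and 4 lower and 0 modifiers were higher, and 0 reported targets were lower, since low genes were not tested. For SOX4 and SOX11, 2 targets were lower, against 1, under quantile normalization and with the length trend removed. A common sum gave 4864 higher and 1838 lower genes, against 3313 and 3121. Depth limits SOX2 and SOX18 most, which rest on 71 to 96 and on 6 to 8 reads in knockdown libraries.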
